A study of Bos taurus with 20 samples.

Results

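Genes that carry glucose into cells and break it down were followed in the blood of pregnant cows: the glucose transporter SLC2A3, the hexokinases HK2 and HK3, the regulator PFKFB3, the glycolytic enzymes ALDOA, TPI1, PGK1, ENO1 and PKM, and the lactate dehydrogenase LDHA. They were chosen by symbol, and all 10 were found by Entrez identifier among the 37063 genes counted. Whole blood was drawn into RNA-stabilizing tubes from 20 recipient cows at day 63 of gestation, and 1 library per cow was sequenced. Each cow carried a single female fetus from a beef-breed oocyte fertilized in vitro with X-sorted semen, and the cows differed in age. All cows belonged to 1 condition, with no non-pregnant or treated group, and the question asked of them was whether RNA in the maternal blood varies with the weight of the calf at birth (calf BW). Calf BW was 45.0 ± 10.1 kg (SD, n = 20), and every calf had a different weight, so each recipient is named here by the weight of her calf.

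Glycolysis splits glucose into pyruvate and yields ATP without oxygen, and pyruvate can then be reduced to lactate. Blood leukocytes differ in their use of it: neutrophils have few mitochondria and depend largely on glycolysis, and activated lymphocytes and monocytes raise it. The first steps, uptake by glucose transporters and trapping of glucose by hexokinases, are carried out by proteins with several tissue-restricted isoforms. Most enzymes of the lower pathway, which here means the steps from aldolase to lactate, are made by nearly every cell.

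Total counts ranged from 24632077 to 39892111 per cow with a median of 33412740, and 16206 genes had at least 10 counts in at least 5 of the 19 cows used for the slopes. Markers of neutrophils, monocytes, T cells, B cells, natural killer cells and platelets were measured in the libraries. Of the 11 erythroid markers, HBB was the most abundant, at 46.9 to 1059 CPM, which is the count relative to the scaled library total. All 10 genes of interest passed the count filter, and the lowest count of any of them in any cow was 1226, so counting error was small beside the spread between cows. CPM used edgeR's TMM factors and was not divided by transcript length, so levels are compared between cows and not between genes.

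SLC2A3 encodes GLUT3, a high-affinity glucose transporter of leukocytes and neurons. Its level was lowest, at 416 CPM, in the recipient of the 36 kg calf, had a median of 546 CPM, and was highest, at 832 CPM, in the recipient of the 56 kg calf. The recipient of the 46 kg calf followed at 786 CPM, and the other 18 cows lay at or below 635 CPM. Both of these cows therefore stood above the rest. The coefficient of variation (CV) over the 20 cows was 18.9%, beside a median of 15.6% over all genes tested.

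The hexokinases phosphorylate glucose and so keep it in the cell. HK2, an inducible form that binds mitochondria, ranged from 38.4 CPM in the recipient of the 41.5 kg calf through a median of 61.7 to 151 CPM in the recipient of the 56 kg calf. HK3, a form found mainly in myeloid cells, ranged from 203 CPM through a median of 395 to 699 CPM, and its lowest and highest cows were those of HK2. The recipient of the 46 kg calf was again second, at 108 CPM for HK2 and 671 CPM for HK3. These were the most variable of the 10 genes, with a CV of 40.2% for HK2 and 32.9% for HK3.

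PFKFB3 makes fructose 2,6-bisphosphate, the strongest activator of phosphofructokinase, and thereby sets the pace of glycolysis. It ranged from 272 CPM in the recipient of the 45 kg calf through a median of 352 to 452 CPM in the recipient of the 35 kg calf. Its highest and lowest cows were not those of the transporter and the hexokinases. The recipient of the 56 kg calf had 302 CPM.

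The enzymes of the lower pathway varied less. ALDOA, the aldolase that splits fructose 1,6-bisphosphate, ranged from 444 to 705 CPM with a median of 545. TPI1, which interconverts the products of that split, ranged from 82.7 to 118 CPM with a median of 103. PGK1, an ATP-generating kinase encoded on chromosome X, ranged from 54.3 to 77.5 CPM with a median of 64.4. The highest cow was thus at most 1.59 times the lowest for each of these enzymes. ENO1, the enolase of most tissues, ranged from 424 to 572 CPM with a median of 521. PKM, the pyruvate kinase of non-hepatic cells, ranged from 709 to 1106 CPM with a median of 1015. LDHA, which reduces pyruvate to lactate, ranged from 104 to 154 CPM with a median of 126. The recipient of the 56 kg calf, highest for SLC2A3, HK2 and HK3, was the lowest of all 20 for PKM. The CV was between 8.15% for ENO1 and 12.3% for ALDOA, and the median over the 10 genes was 11.7%.

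**Figure D1:**
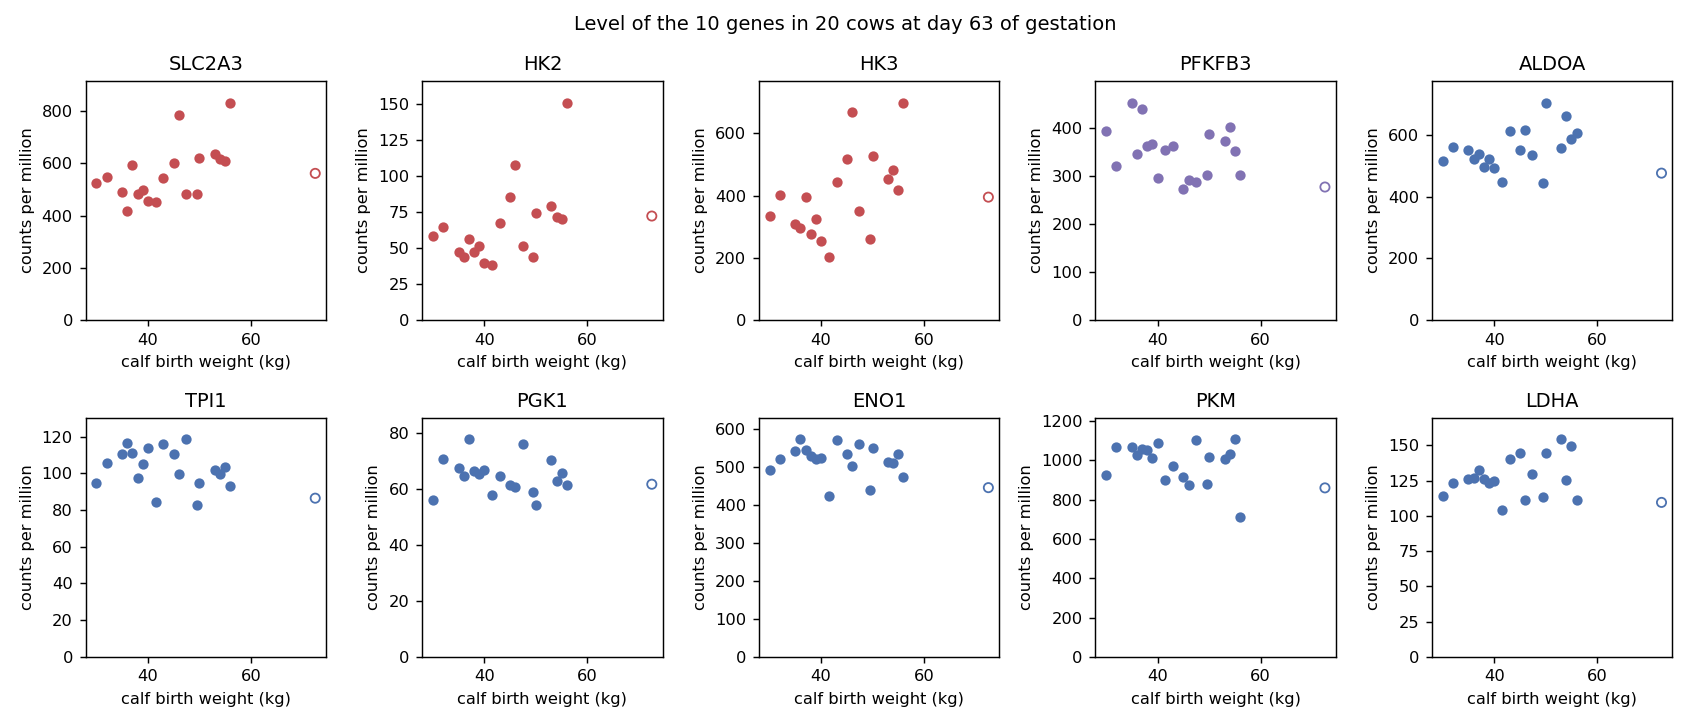
Each panel plots 1 gene, with calf birth weight in kg on the x axis and CPM on the y axis, which starts at 0, and 1 point per cow. Open circles mark the recipient of the 72.5 kg calf, left out of the slopes, and the recipients of the 56 kg and 46 kg calves have the highest points for SLC2A3, HK2 and HK3.

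The 10 genes did not vary as 1 block. Over the 20 cows the transporter and both hexokinases formed a tight group: the Pearson correlation of log2 CPM was 0.95 between SLC2A3 and HK2, 0.92 between SLC2A3 and HK3, and 0.95 between HK2 and HK3. Each had a permutation p of 1e-05, the smallest that 100000 resamples can give, and an adjusted p of 0.00011 by the Benjamini-Hochberg method over the 45 pairs. The Spearman correlations were 0.94, 0.92 and 0.96, with the same permutation p and adjusted p. The recipients of the 56 kg and 46 kg calves stand apart in these genes. With the 2 cows farthest from the median of the first gene left out, the Pearson correlations were 0.91, 0.87 and 0.95.

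A second group held enzymes of the lower pathway. TPI1 and ENO1 had a Pearson correlation of 0.89 (permutation p = 1e-05, adjusted p = 0.00011) and, by Spearman, 0.83 (permutation p = 2e-05, adjusted p = 0.00018). ENO1 and LDHA had 0.72 (permutation p = 0.0003, adjusted p = 0.00225) and 0.76 (permutation p = 0.00016, adjusted p = 0.0012). Among ALDOA, TPI1, PGK1, ENO1, PKM and LDHA, 8 of 15 pairs had an adjusted p below 0.05, and the median Pearson correlation was 0.55. No pair with ALDOA was among the 8, and its adjusted permutation p lay between 0.055 with ENO1 and 0.819 with PGK1. Without the 2 farthest cows, TPI1 and ENO1 had 0.82, and ENO1 and LDHA had 0.63.

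Between the 2 groups most correlations over all cows were weak. The main exception was ALDOA, which was placed with the lower pathway by its step and not by its correlations. ALDOA had a Pearson correlation of 0.80 with HK3 (permutation p = 3e-05, adjusted p = 0.00027) and, by Spearman, 0.86 (permutation p = 1e-05, adjusted p = 0.00011), and 0.77 without the 2 farthest cows. With SLC2A3 and HK2 its Pearson correlations were 0.65 and 0.64, each with an adjusted permutation p of 0.00972. ENO1, by contrast, had -0.09 with SLC2A3 and -0.03 with HK2. LDHA had 0.09 with SLC2A3 and 0.11 with HK2, but 0.59 and 0.60 without the 2 farthest cows. The weak correlations of LDHA with these 2 genes thus depend on those cows. With HK3, LDHA had 0.27, and 0.44 without the recipient of the 56 kg calf. The 2 cows farthest from the median of HK3 were others than for SLC2A3 and HK2, namely the recipients of the 41.5 kg and 56 kg calves. Without these, HK3 and LDHA had 0.29. HK2 and PKM were inversely related, with a Pearson correlation of -0.57 (permutation p = 0.00955, adjusted p = 0.033). By Spearman this pair had -0.38 (permutation p = 0.0942, adjusted p = 0.235), and Pearson's r was -0.27 without the recipient of the 56 kg calf, so the relation rests on her. PFKFB3 had no pair with an adjusted p below 0.05, and its correlations with the other 9 genes lay between -0.25 and 0.41. Over all 45 pairs the median Pearson correlation was 0.25, and 15 pairs had an adjusted p below 0.05. The share of pairs among all genes tested that would pass was not determined, so these counts have no background beside them.

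The genes whose level followed each of the 10 most closely over the 20 cows were taken from the 16196 other genes tested, by Pearson correlation. For SLC2A3 they were CRISPLD2 (0.97), PIM1 (0.95) and AK3 (0.95), and for HK2 they were TRPC6 (0.97), SCAP (0.97) and C6H4orf19 (0.97). For HK3 they were PGD (0.98), which encodes an enzyme of the pentose phosphate pathway, MYADM (0.97) and SMPD3 (0.97). Correlations above 0.9 were found with 67 of these genes for SLC2A3, 121 for HK2 and 92 for HK3. For TPI1 the closest were SND1 (0.94), CHCHD3 (0.93) and MRPL41 (0.92). For ENO1 they were the ribosomal protein genes RPS19 (0.96), RPS15 (0.93) and RPL18 (0.93), and 14 genes exceeded 0.9. ALDOA was followed by GNAI2 (0.92), UCP2 (0.92) and RGS19 (0.92), and PKM by CAPN2 (0.92), SELENON (0.90) and KLF4 (0.90). No gene exceeded 0.9 with the other 3. Among the closest genes, PFKFB3 had SDCBP (0.86) and SH3BP2 (0.86), PGK1 had COX4I1 (0.90) and ITGB1 (0.90), and LDHA had ABCA10 (0.83), ATP6V1B2 (0.82) and ACP2 (0.82).

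Whole blood mixes cell types, and fewer cells of a type and less RNA per cell cannot be told apart in these libraries. The 10 genes were therefore set beside the mean z-score of 8 lists of cell type markers, which makes 80 correlations adjusted together. The eosinophil list had 7 genes, of which 4 were named in the gene table and only IL5RA, the interleukin-5 receptor subunit of eosinophils, had counts enough to be tested. CCR3 and ALOX15 had 0 counts in every cow, and RNASE2 had at most 2 counts. IL5RA ranged from 20.2 CPM in the recipient of the 40 kg calf through a median of 58.8 to 199.9 CPM in the recipient of the 56 kg calf, and the recipient of the 46 kg calf was second at 148 CPM.

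The transporter and both hexokinases followed IL5RA closely. The Pearson correlation was 0.96 for HK2, 0.94 for SLC2A3 and 0.92 for HK3, each with a permutation p of 1e-05 and an adjusted p of 0.0002. The Spearman correlations were 0.96, 0.90 and 0.90, each with a permutation p of 1e-05 and an adjusted p of 0.00027. The 2 cows farthest from the median of IL5RA were the recipients of the 56 kg and 40 kg calves. With these left out and the recipient of the 46 kg calf kept, the Pearson correlations were 0.95, 0.92 and 0.90. Of all other genes tested, 89 had a correlation above 0.9 with IL5RA, which is 0.549%. ALDOA had 0.59 (permutation p = 0.00663, adjusted p = 0.0589), and the other 6 genes lay between -0.55 for PKM and 0.03 for LDHA.

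Other genes known from eosinophils also followed IL5RA. These were chosen after their values were seen, so they are no test of which cells the RNA came from. They were the transcription factors GATA1 (0.98) and CEBPE (0.92), the histamine receptor HRH4 (0.95), the prostaglandin D2 receptor PTGDR2 (0.92) and SMPD3 (0.90). ITGA2B of the platelet list had 0.80 with IL5RA and HBQ1 of the erythroid list 0.63, while the other tested genes of those lists had negative correlations with it. The neutrophil score, from 10 tested of 12 listed markers with a summed level of 3795 to 6274 CPM, had correlations of 0.02 with SLC2A3, -0.12 with HK2 and 0.02 with HK3. The genes of that list did not go together: PADI4 had a Pearson correlation of 0.93 with IL5RA and MMP25 had 0.80, while S100A12 had -0.49, S100A9 -0.43, S100A8 -0.39 and CSF3R -0.37, so the score averages over markers that went both ways.

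**Figure D2:**
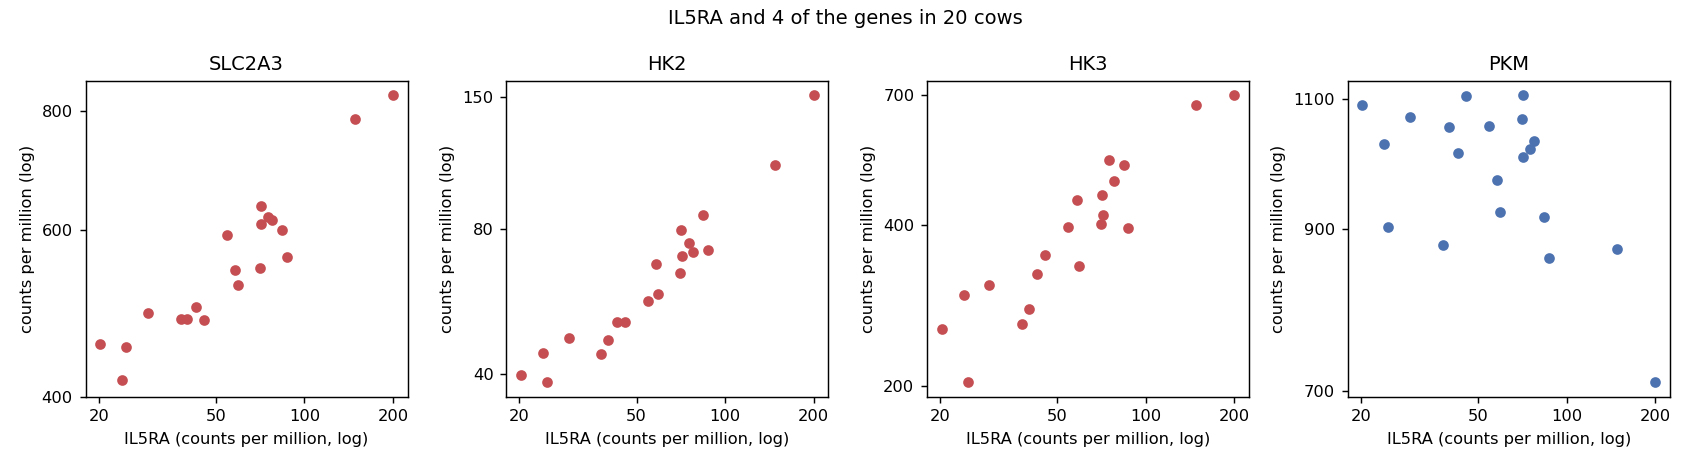
Each panel plots the CPM of 1 gene (y axis, log scale) against those of the eosinophil marker IL5RA (x axis, log scale), with 1 point per cow. SLC2A3, HK2 and HK3 rise with IL5RA over its range of 20.2 to 199.9 CPM, while PKM is lowest in the cow with the most IL5RA.

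PKM followed the monocyte list instead, from 7 tested of 8 listed markers, of which CX3CR1 had 0 counts in every cow. The summed level of that list ranged from 1856 CPM in the recipient of the 56 kg calf to 3999 CPM in the recipient of the 37 kg calf. PKM had a Pearson correlation of 0.88 with the score (permutation p = 1e-05, adjusted p = 0.0002) and, by Spearman, 0.75 (permutation p = 0.0002, adjusted p = 0.004), and 0.80 without the 2 farthest cows. A correlation with this score larger than that of PKM, in either direction, was found in 0.21% of all genes tested. With the neutrophil score PKM had 0.65 (permutation p = 0.00174, adjusted p = 0.0199), and 2.23% of all genes tested had a larger one in either direction.

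PFKFB3 was the one gene of the 10 whose highest correlation was with the neutrophil score, at 0.70 by Pearson (permutation p = 0.00077, adjusted p = 0.0103) and 0.69 by Spearman (permutation p = 0.00108, adjusted p = 0.0156). It was 0.64 without the 2 farthest cows. A Pearson correlation with the neutrophil score larger than that of PFKFB3, in either direction, was found in 1.265% of all genes tested. PGK1 was inversely related to the B cell score, from all 7 listed markers with a summed level of 914 to 1645 CPM. Its Pearson correlation was -0.74 (permutation p = 0.00023, adjusted p = 0.00368), its Spearman correlation was -0.69 (permutation p = 0.00117, adjusted p = 0.0156), and without the 2 farthest cows r was -0.59. For the B cell score, 1.31% of all genes tested had a larger Pearson correlation than PGK1 in either direction. By Pearson, no other pair of a gene and a list had an adjusted p below 0.05. HK2 and the monocyte list lay on that threshold, with -0.62 (permutation p = 0.005, adjusted p = 0.05), and SLC2A3 had -0.57 with it (permutation p = 0.00996, adjusted p = 0.0621). Without the recipient of the 56 kg calf these were -0.36 and -0.33, and without the 2 farthest they were 0.000098 and 0.15. By Spearman, 4 further pairs had an adjusted p below 0.05: ALDOA with IL5RA, ENO1 and LDHA with the monocyte list, and PKM with the platelet list. By Pearson, the T cell list (9 of 9 tested, 795 to 1288 CPM), the natural killer list (6 of 7, 185 to 392 CPM, with GZMA at 0 counts in every cow), the platelet list (9 of 9, 626 to 1818 CPM) and the erythroid list (10 of 11, 58.4 to 1110.3 CPM) had none.

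**Figure D3:**
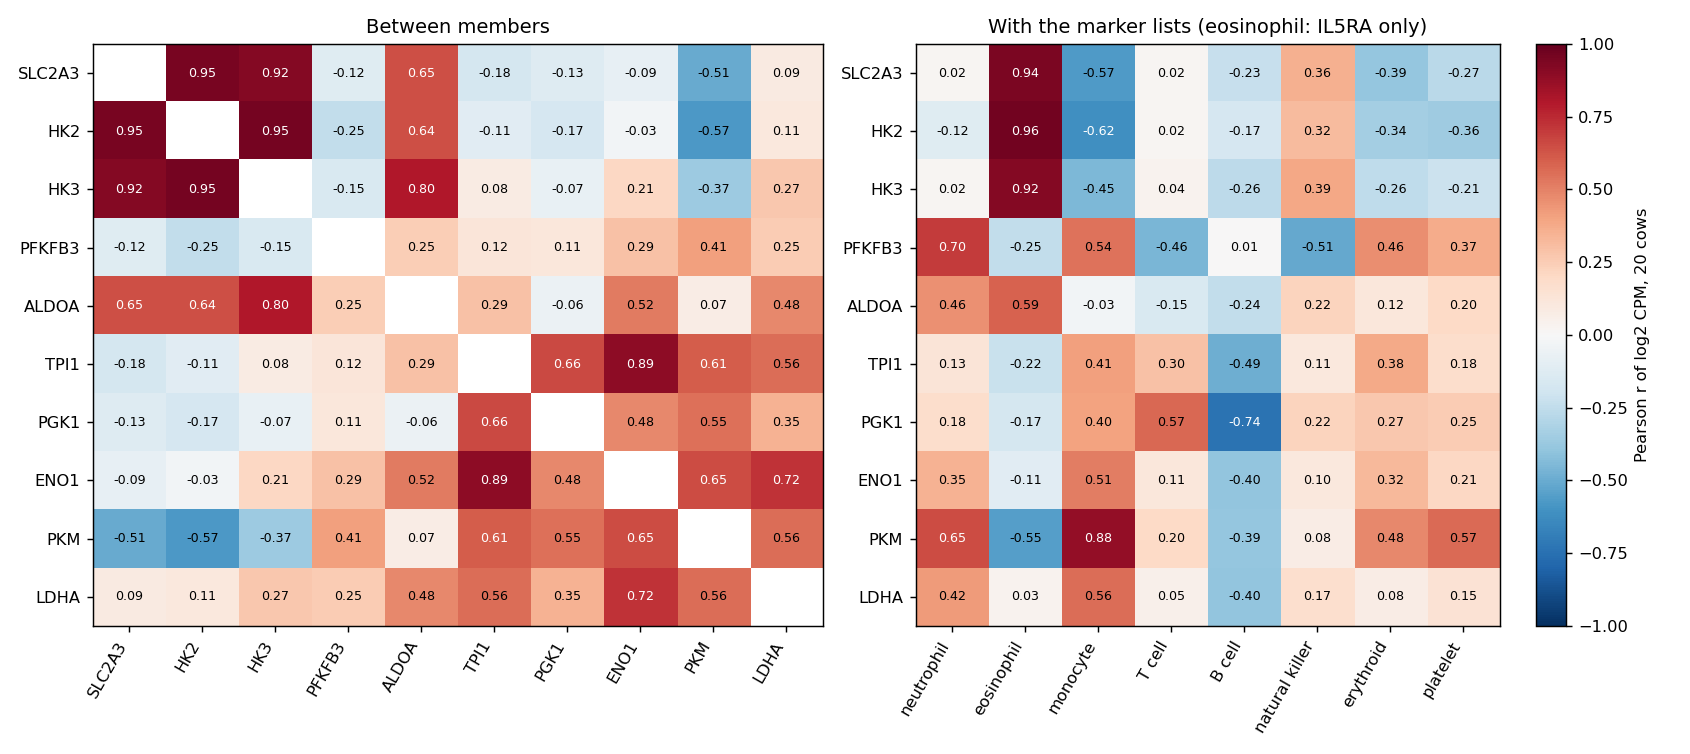
Heat maps of Pearson correlations of log2 CPM over 20 cows, between the 10 genes on the left and with the scores of 8 marker lists on the right, with colour from -1 (blue) to 1 (red). SLC2A3, HK2 and HK3 form 1 red block and share a correlation of 0.92 to 0.96 with the eosinophil marker IL5RA, and PKM has 0.88 with the monocyte list.

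The relation to calf BW was estimated as the slope of log2 expression per kg, by edgeR's quasi-likelihood test in 19 cows, without the recipient of the 72.5 kg calf, which the study's own model also leaves out. None of the 10 genes had a Benjamini-Hochberg FDR below 0.05. The share of all genes that did was 0%, with a smallest FDR of 0.0753, and by DESeq2 it was 1.22%, again with none of the 10. At an unadjusted p below 0.05, 3 of the 10 genes had a positive slope and 0 a negative one. Over all genes the share with an unadjusted p below 0.05 was 13.9%, of which positive slopes made up 6.78% and negative slopes 7.08% of the genes tested. The median slope of the 10 genes was 0.0012 per kg, beside -0.00072 over all genes. Its sign was not stable: it was -0.00093 with all 20 recipients and -0.00017 without the recipient of the 30 kg calf, and it was 0.0040 without that of the 56 kg calf.

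The 3 genes were those of the tight group. HK2 had a slope of 0.036 per kg (SE 0.011, p = 0.00432, FDR 0.181 by edgeR), which from the lightest calf of 30 kg to the heaviest of 56 kg amounts to a fitted fold of 1.92. HK3 had 0.030 per kg (SE 0.011, p = 0.0105, FDR 0.217 by edgeR), a fitted fold of 1.73. SLC2A3 had 0.018 per kg (SE 0.0059, p = 0.00481, FDR 0.184 by edgeR), a fitted fold of 1.40. Without the recipient of the 56 kg calf the slope of HK2 was 0.023 (edgeR p = 0.0508), that of HK3 0.024 (edgeR p = 0.0535) and that of SLC2A3 0.014 (edgeR p = 0.0336), so of the 3 only SLC2A3 kept its unadjusted p below 0.05. With all 20 recipients in the model, the slopes were 0.026 for HK2 (edgeR p = 0.0138), 0.020 for HK3 (edgeR p = 0.0439) and 0.012 for SLC2A3 (edgeR p = 0.0277).

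The other genes had smaller slopes. ALDOA had 0.0089 per kg (SE 0.0043, p = 0.0519, FDR 0.366 by edgeR) and LDHA 0.0055 (SE 0.0044, p = 0.22 by edgeR). With all 20 recipients these slopes were 0.0030 (edgeR p = 0.448) and 0.00069 (edgeR p = 0.853). The slopes of PFKFB3, TPI1, PGK1, ENO1 and PKM were negative, between -0.0075 and -0.0031 per kg, and their unadjusted p-values lay between 0.203 and 0.438. For PKM the slope was -0.0057 (SE 0.0044) and -0.00087 without the recipient of the 56 kg calf.

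IL5RA also had a positive slope on calf BW, of 0.053 per kg (SE 0.019, p = 0.0102, FDR 0.216 by edgeR). The recipient of the 56 kg calf, the heaviest of these calves, had the most IL5RA, and the slope of IL5RA without her is not reported here. Its Pearson correlation with calf BW over 19 cows was 0.51 (permutation p = 0.0263, adjusted p = 0.21 over 8 lists). The Spearman correlation was 0.55 (permutation p = 0.0155). In a model with the log2 CPM of IL5RA as a covariate, chosen after seeing the data, the slope on calf BW was 0.0043 for HK2 (SE 0.0046, p = 0.363 by edgeR), 0.0025 for HK3 (SE 0.0059, p = 0.678 by edgeR) and 0.0037 for SLC2A3 (SE 0.0029, p = 0.221 by edgeR). These 3 genes had correlations of 0.92 to 0.96 with IL5RA, so that model left little of their variation to relate to calf BW. With the neutrophil score as covariate the slopes were 0.035, 0.030 and 0.018, and with the monocyte score, also added after seeing the data, 0.025, 0.024 and 0.014. With IL5RA regressed out of each gene, the Pearson correlation of the residuals was 0.51 for SLC2A3 and HK2 (permutation p = 0.0227, adjusted p = 0.0568), 0.41 for SLC2A3 and HK3 (permutation p = 0.072, adjusted p = 0.147) and 0.64 for HK2 and HK3 (permutation p = 0.00316, adjusted p = 0.0142). That of TPI1 and ENO1 was 0.89. The separation of the groups was less clear in these residuals, because HK3 was then correlated with enzymes of the lower pathway. HK3 had 0.79 with ENO1 (permutation p = 1e-05, adjusted p = 0.00015), 0.76 with TPI1 (permutation p = 8e-05, adjusted p = 0.0009) and 0.62 with LDHA (permutation p = 0.00455, adjusted p = 0.0186), where the correlations without the adjustment for IL5RA were 0.21, 0.08 and 0.27. HK2 and SLC2A3 had 0.30 and 0.057 with ENO1 (adjusted permutation p = 0.307 and 0.879).

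**Figure D4:**
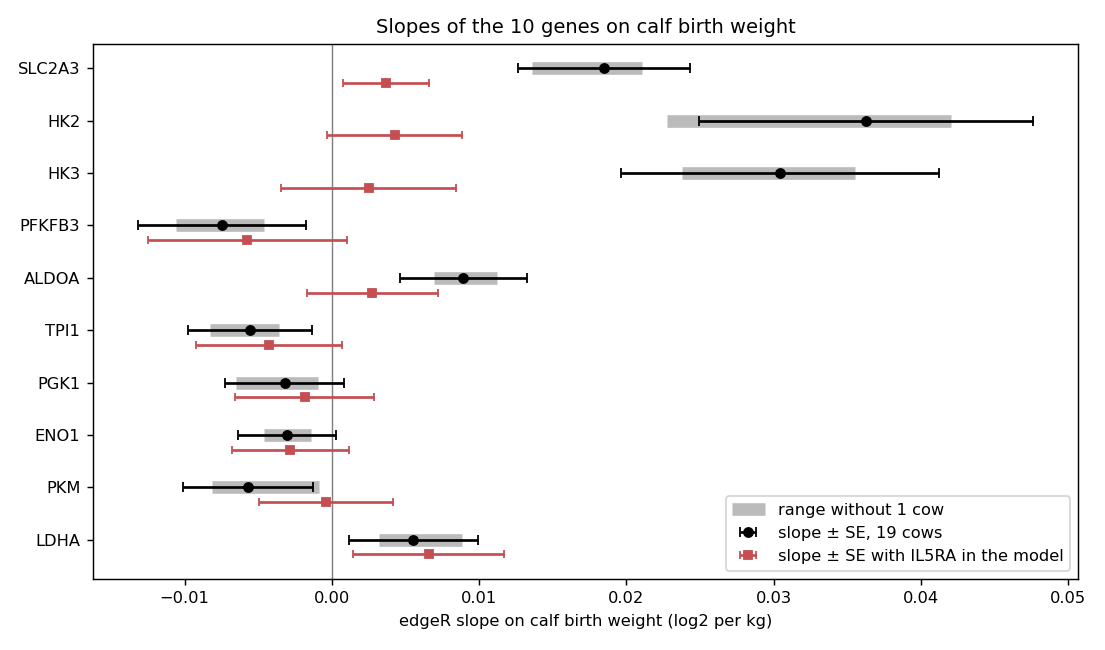
The x axis is the edgeR slope on calf birth weight in log2 per kg, with 1 row per gene. Black points and bars are the slope and its SE in 19 cows, grey bands the range of the slope when each cow is left out in turn, and red squares and bars the slope and SE with IL5RA in the model, where HK2 lies at 0.0043 in place of 0.036.

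The isoforms of each enzyme family were examined next. Of the other glucose transporters, SLC2A1, the widely expressed basal carrier GLUT1, had 8.17 to 37.4 CPM (median 14.9), a slope of 0.043 per kg (SE 0.014, p = 0.00578, FDR 0.191 by edgeR) and a correlation of 0.89 with IL5RA. SLC2A11 had at most 1.53 CPM and a slope of -0.047 (SE 0.020, p = 0.0271 by edgeR). SLC2A6, SLC2A8, SLC2A9, SLC2A10, SLC2A12 and SLC2A13 had unadjusted p-values of 0.131 or more, SLC2A4 had at most 12 counts in a cow, and SLC2A5 had 0 counts in every cow. HK1, the housekeeping hexokinase, varied little beside HK2 and HK3, at 48.4 to 69.1 CPM, with a slope of 0.0053 per kg (SE 0.0037, p = 0.171 by edgeR). HKDC1 had at most 8 counts in a cow.

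In the family of PFKFB3, the isoform PFKFB2 had 18.2 to 28.0 CPM and a slope of 0.015 per kg (SE 0.0042, p = 0.00171, FDR 0.151 by edgeR), with an FDR of 0.0487 by DESeq2. Its correlation with IL5RA was 0.30, and its slope with IL5RA in the model was 0.017 (p = 0.00278 by edgeR). The slope of PFKFB2 was thus no smaller with IL5RA, a gene with which it was only weakly correlated. PFKFB4 had a slope of -0.0094 (p = 0.172 by edgeR), and PFKFB1 had at most 27 counts. The relatives ALDOC, ENO3, ENO4, PKLR, LDHB and LDHC had unadjusted p-values of 0.131 or more, and LDHB, the heart-type lactate dehydrogenase, ranged from 217 to 278 CPM. ENO2 had at most 40 counts, and PGK2, a testis form, had 0 counts in every cow.

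Beyond the 10 genes, 75 genes of glycolysis and its neighbouring routes were listed and 73 tested. None had an FDR below 0.05 by edgeR and 2 did by DESeq2. At an unadjusted p below 0.05, 13 had a positive and 2 a negative slope, together 20.5% of those tested beside the 13.9% of all genes. Over all genes, positive slopes at that level made up 6.78% and negative ones 7.08%. Several of the 73 genes followed IL5RA, as given below, so they are not independent of one another. Of the 19 other genes of glycolysis tested, 10 had a positive slope and 9 a negative one. At an unadjusted p below 0.05, 4 had a positive slope and 0 a negative one, beside 6.78% and 7.08% of all genes. The 4 were SLC2A1, PFKFB2, GPI, the isomerase after hexokinase, with 0.024 per kg (SE 0.0086, p = 0.0113 by edgeR), and PFKP, a phosphofructokinase, with 0.011 (p = 0.0439 by edgeR). GAPDH, the dehydrogenase of the lower pathway, had 513 to 747 CPM and a slope of 0.0047 (p = 0.236 by edgeR).

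Of 7 pentose phosphate genes, 2 had a positive slope at that level and 0 a negative one, beside 6.78% and 7.08% of all genes. The same shares apply to the other lists. PGD, which releases NADPH and was the closest gene to HK3, had 0.032 per kg (SE 0.011, p = 0.00809 by edgeR), and TALDO1 had 0.0080 (p = 0.0466 by edgeR). Of 10 glycogen genes, 2 had a positive slope at that level, among them PYGL. This gene, the phosphorylase that frees glucose from glycogen, had 0.014 (p = 0.0132 by edgeR). Of 14 genes of pyruvate and lactate handling, the lactate exporter SLC16A3 had 0.021 (p = 0.0438 by edgeR) and the kinase PDK3 0.0089 (p = 0.036 by edgeR). The transporter SLC16A1 had -0.010 (p = 0.0259 by edgeR).

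Of 12 hypoxia and glycolysis regulators, only ARNT, the partner of the hypoxia-inducible factors, had an unadjusted p below 0.05, with 0.0058 per kg (p = 0.0369 by edgeR). For this list and the next, the share over all genes was 13.9% in either direction. HIF1A had 0.010 (p = 0.0711 by edgeR) and MYC -0.0051 (p = 0.184 by edgeR). Of 11 hypoxia targets outside glycolysis, VEGFA, the vascular growth factor, had 0.038 (SE 0.0100, p = 0.00117, FDR 0.129 by edgeR; FDR 0.0269 by DESeq2), KDM3A 0.0065 (p = 0.0059 by edgeR) and DDIT4 -0.017 (p = 0.0438 by edgeR). ADM had at most 12 counts and was not tested.

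Several of these genes followed IL5RA as the transporter and the hexokinases did. The correlation with IL5RA was 0.93 for GPI, 0.93 for PGD, 0.85 for VEGFA, 0.83 for the transketolase TKT, 0.78 for PYGL, 0.75 for SLC16A3 and 0.71 for PFKP. With IL5RA in the model the slope of GPI was 0.0021 (p = 0.651 by edgeR), that of PGD 0.0039 (p = 0.507 by edgeR), that of SLC2A1 0.0087 (p = 0.363 by edgeR) and that of VEGFA 0.016 (p = 0.0407 by edgeR). Of the 15 pathway genes with an unadjusted p below 0.05, those with the larger slopes were mostly those with a high correlation with IL5RA, and both measures come from the same cows. The slopes of the pathway genes without the recipient of the 56 kg calf are not reported here.

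**Figure D5:**
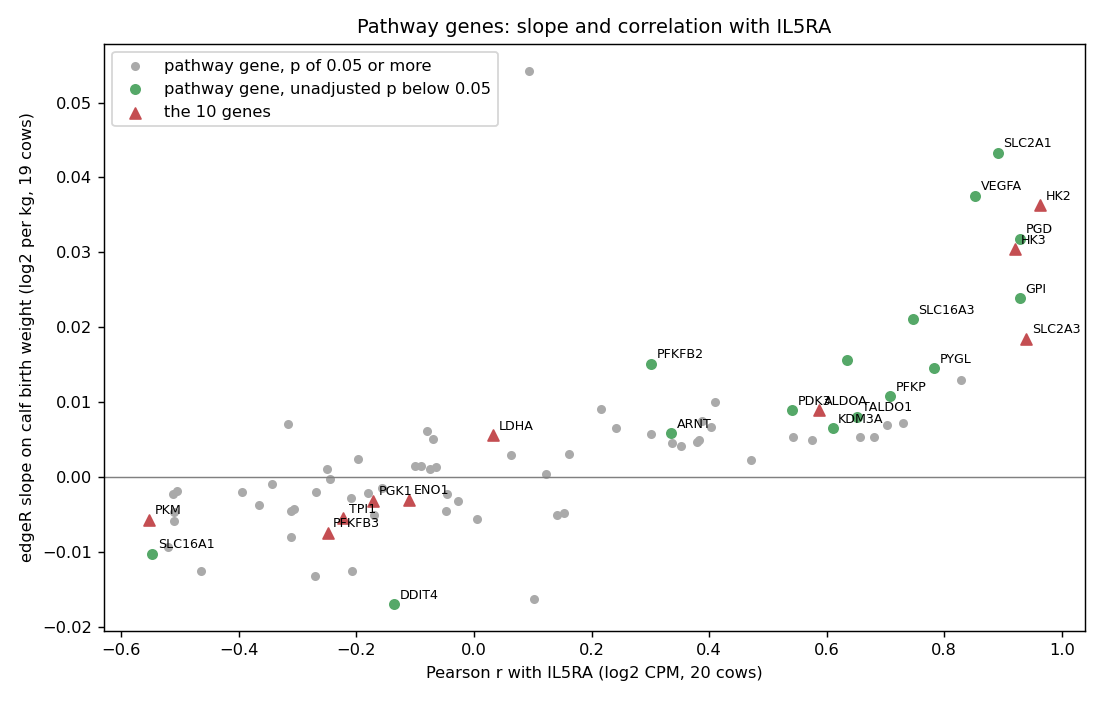
Each point is a gene, with its Pearson correlation with IL5RA over 20 cows on the x axis and its edgeR slope on calf birth weight (log2 per kg, 19 cows) on the y axis. Grey and green points are the 73 pathway genes tested, green where the unadjusted p is below 0.05, and red triangles are the 10 genes, of which HK2, HK3 and SLC2A3 lie at the upper right and PFKFB3, TPI1, PGK1, ENO1 and PKM below 0.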

How the data were processed

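Blood RNA of 20 cows, 1 library each, was analysed. Reads were trimmed (Trimmomatic), aligned to a cattle genome index (STAR) and assigned to genes (featureCounts) by the authors, whose deposited values are raw counts by Entrez identifier, not normalized. The submitters' processing notes name FastQC 0.11.9, STAR 2.7.0b and Subread 2.0.3. The labels name a SMARTer Stranded RNA kit and the paper a Truseq-stranded mRNA kit. The strand setting and the treatment of reads matching several genes are not given in the sources used here, so ALDOA, TPI1, PGK1, ENO1, PKM, LDHA and GAPDH, whose families include processed copies, are uncertain. The sources describe the breed of the recipients in more than one way, and breed was not used. No sequencing batch is named. The lowest chi-square per degree of freedom over the 190 pairs of libraries was 12.2, so none was a duplicate.

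Gene names came from the RefSeq table of ARS-UCD2.0, a build other than the one used for alignment, so no coordinates are given. Sequences, promoter motifs and transcript lengths were not analysed here, and copies of the genes could not be looked up by description. A gene was tested if 5 or more cows had 10 or more counts. edgeR 4.0.16 (R 4.3.3; TMM, quasi-likelihood test, Benjamini-Hochberg) gave slopes on calf BW in 19 cows. DESeq2 1.42.0 and limma 3.58.1 with voom, the full set of 20 cows, no filter, other scalings, ranked BW, covariates from marker scores, and omission of single cows were alternatives. The IL5RA, monocyte and B cell covariates were added after seeing the data. Correlations used log2 CPM (prior count 2) in 20 cows with two-sided permutation tests (100000 resamples) in Python 3.11.15, numpy 2.4.6, scipy 1.17.1 and pandas 2.3.3, and figures were drawn with matplotlib 3.10.9.

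The 10 genes, the lists and the tests were chosen with earlier results of these data known. Named genes were the 10, the 3 most correlated genes of each, the listed isoforms, and pathway genes with an unadjusted p below 0.05. Some genes that this rule names are not reported here. Others named (HIF1A, MYC, GAPDH, TKT and the eosinophil genes beyond IL5RA) were chosen after their values were seen. In counts simulated for the slope test, with 200 genes changed by 0.06 per kg, edgeR recovered 75.5% with 3.21% of its calls false (15917 genes). DESeq2 recovered 77.5% with 15.3% false (16206 genes) and voom 73% with 5.19% false (15917 genes). The largest slope of the 10 genes was 0.036 per kg, for HK2. Recovery at slopes of that size or smaller was not tested.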

Additional observations from a re-analysis of the deposited data

How the results depend on the processing

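None of the 10 genes had an FDR below 0.05 under any of the 33 alternatives, and no slope of the 10 changed sign under any of them. The number with an unadjusted p below 0.05, 3 as reported, was 5 with the monocyte score as covariate and 0 with the IL5RA level as covariate, both added after seeing the data. It ranged from 1 to 4 when each cow was left out in turn, and was 1 without the recipient of the 56 kg calf. Over all genes this number was 2247 of 16206 as reported, 1806 with the monocyte score and 1250 with IL5RA. Without the recipient of the 56 kg calf it was 1605 of 16159, so the calls fell over all genes too. ALDOA passed an unadjusted p of 0.05 under 11 alternatives, among them DESeq2 (p = 0.0438), but its slope fell from 0.0089 to 0.0030 with all 20 cows (p = 0.448) and to 0.0027 with IL5RA (p = 0.546). LDHA passed under 1, the monocyte score (p = 0.00923). The median slope ranged from -0.00017 to 0.0040 when each cow was left out. Ranked BW gives slopes per rank and not per kg, and is left aside here. Under each other alternative the median slope moved by less than the median SE of the 10 slopes. That SE is of single genes and does not measure the error of their median, whose sign was not stable. The median correlation moved by less than its jackknife standard error of 0.165 under each alternative run. It lay between 0.093 (residuals on the neutrophil score) and 0.40 (residuals on IL5RA), and 11 to 20 pairs had an adjusted p below 0.05. Each cow gave 1 library, so technical and animal-to-animal spread cannot be separated.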
